A study of Danio rerio with 10 samples.

Results

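The effect of a Bdh2 morpholino in zebrafish embryos that also carried an Atg7 morpholino was examined, by setting the 3 arrays of embryos injected with both morpholinos (dual morphants) against the 3 arrays of embryos injected with the Atg7 morpholino only (Atg7 morphants). These 6 arrays, chosen by their titles, are part of a series of 10 that also holds 1 array of Bdh2 morphants and 3 of control morphants. All embryos were of a wild-type background and were taken at 72 h after fertilization, and total RNA of the embryos was hybridised to a 1-colour Affymetrix zebrafish array, on which several short probes together (a probe set) read a transcript. Morpholinos are injected antisense compounds that keep a target RNA from being translated or spliced. Injections were made at the 1- to 2-cell stage with 1 to 2 nL at 130 micromol/L. The labels list the same concentration for single and dual injections, and how it was split between the morpholinos of a dual injection was not settled here. A morpholino lowers a gene product without removing the gene, its sequence and that of the control morpholino were not used here, and the labels do not tie replicates to separate clutches, so the p-values reflect only how these samples varied, and that variation may be technical.

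Atg7 is the E1-like enzyme that activates the ubiquitin-like proteins conjugated during autophagosome formation, so its loss blocks the main route by which cells deliver cytoplasm to the lysosome. Bdh2 is a cytosolic dehydrogenase known in mammals for a part in making a siderophore, a small molecule that binds iron and helps to distribute it inside cells. The comparison asks what lowering Bdh2 adds to, or reverses in, embryos already short of Atg7.

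The deposited values were log2 intensities of 15502 probe sets after control probe sets were set aside, and array medians lay between 6.33 and 6.36 in dual morphants and between 6.37 and 6.38 in Atg7 morphants. Pairwise Pearson correlations between arrays over probe sets, given as a description, were 0.997 to 0.998 among dual morphants and 0.986 to 0.987 between dual and Atg7 morphants. Dual morphant arrays were closer to the Bdh2 array, with correlations of 0.992 to 0.993. As a sign of RNA quality, the actin control's excess of 3 prime over 5 prime signal (log2) was 3.86 ± 0.044 in dual morphants and 3.93 ± 0.11 in Atg7 morphants (SD, n = 3 each), a difference of -0.064 with an exact permutation p of 0.5. On the same measure controls stood lower, at 3.41, 3.42 and 3.53, and the Bdh2 array highest, at 4.3. The measure thus moves with the Atg7 minus control, dual minus control, Bdh2 minus control and departure results. Its part in them was not tested. The GAPDH control gave a difference of 0.033 with an exact permutation p of 0.8, and 3 against 3 arrays cannot go below 0.1. The transcript targeted by the second morpholino was measured at 7.38, 7.28 and 7.17 in dual morphants, against 7.22, 7.18 and 7.22 in Atg7 morphants. The groups overlapped, and bdh2 did not pass the test (difference 0.071 ± 0.072 SE, limma adjusted p = 0.496). Because a morpholino may act on translation, the level of this transcript does not check the labels. The atg7 transcript was not analysed here.

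Between dual and Atg7 morphants, 5115 probe sets passed an adjusted p of 0.05 in a limma fit over all 10 arrays, which is 33.0% of those tested. Of these, 2448 were higher and 2667 lower in dual morphants. Most differences were small: 82.6% of the called probe sets differed by less than 1.5-fold, 245 (1.58% of those tested) differed by at least 2-fold, and 41 by at least 4-fold. Falls prevailed among the large differences, with 90 probe sets at least 2-fold higher and 155 at least 2-fold lower. The 3 dual arrays lay wholly above or wholly below the 3 Atg7 arrays for 6844 probe sets (44.1%), among them 4985 of the called ones. In bulk RNA of embryos, fewer cells of a type and less RNA per cell cannot be told apart.

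The widest differences had the form of steps between arrays with and without the Bdh2 morpholino. The widest of all was a probe set with no gene name here, singled out after its values were seen. It read 4.49, 4.93 and 5.42 in dual morphants, against 13.87, 13.83 and 13.82 in Atg7 morphants, and stood at 4.63 on the Bdh2 array, against 13.74 to 13.82 in controls. Another unnamed probe set, chosen likewise, ran the other way, at 11.06, 11 and 11.09 in dual morphants, against 3.94, 3.80 and 3.70 in Atg7 morphants, with 9.92 on the Bdh2 array, against 3.27 to 3.64 in controls. Over the whole table, 94 probe sets separated the 4 arrays with the Bdh2 morpholino from the 6 without it by at least 1 on the log2 scale between the nearest arrays, 41 of them higher with the morpholino. No probe set separated the 6 arrays with the Atg7 morpholino from the 4 without it by that much. Whether dual and Bdh2 embryos shared anything else, such as a clutch, is not given in the sources used here, so an effect of the Bdh2 morpholino and of anything else those 4 arrays shared cannot be told apart.

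Among genes with a name, the largest rise was that of hsp70.3, an inducible cytosolic chaperone read by a probe set whose suffix marks probes shared with other transcripts. It read 11.32, 11.55 and 11.46 in dual morphants, against 7.73, 7.65 and 7.73 in Atg7 morphants (difference 3.74 ± 0.067 SE, limma adjusted p = 4.09e-12), while the Bdh2 array read 11.10, against 8.53 to 8.59 in controls. No dual array came near an Atg7 array. Next came zgc:136864 (difference 2.96), mchr1b (2.94), a receptor for melanin-concentrating hormone, rnf146 (2.73), a ubiquitin ligase, ppiaa (2.64), a cyclophilin, and cyp17a1 (2.03), a steroid synthesis enzyme. The other rises on this list were si:dkey-286j15.3, si:ch211-121a2.2, farp2, tnpo2a, parvaa, rtkn2, hnrnpa0a, the titin gene ttn.2 and hapln1a, with differences between 2.01 and 1.65. All of these 15 passed the test with groups that did not overlap, by the rule that chose them.

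The largest named fall was LOC100002043 (difference -4.45). The next, ddit4, encodes a stress-induced inhibitor of the growth-promoting kinase complex mTORC1, and read 3.95, 4.56 and 4.05 in dual morphants, against 8.12, 8.10 and 7.91 in Atg7 morphants (-3.86 ± 0.13 SE, limma adjusted p = 1.17e-09). On the Bdh2 array it was 4.29, against 8.19 to 8.29 in controls. The lists of falls went on with si:ch1073-340i21.3 (-3.62), calr (-3.44), a calcium-binding chaperone of the endoplasmic reticulum, the galectin lgals2b (-3.43), frg1 (-3.36), zgc:112271 (-3.34), si:ch73-237c6.1 (-3.11), the antigen-presenting molecule mhc1zba (-2.97), the collagenase mmp13a (-2.91), the hypertrophic cartilage collagen col10a1a (-2.83), the Hsp90 cochaperone ahsa1a (-2.79), the gelatinase mmp9 (-2.59), si:ch211-214b16.3 (-2.19) and epdl2 (-2.19). Of the 29 probe sets at least 4-fold lower in dual morphants, 18 had a dual mean under 5 on the log2 scale, where 4642 of all tested probe sets had their mean.

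Where a gene had several probe sets, the large differences were not always shared by them. The other calr probe set differed by 0.07, the other ppiaa probe set by -0.00, the other mchr1b probe set by 0.02 and the other cyp17a1 probe set by -0.16. That of zgc:112271 differed by -0.24 and that of zgc:136864 by 0.63. The other probe sets of rnf146 differed by -0.17 and 2.64, and those of farp2 by 0.06 and 1.11. For hnrnpa0a, which rose by 1.84, the others differed by -0.01 and 0.12. Those of ttn.2, which rose by 1.68, differed by 1.35, 0.16 and 0.12. For hapln1a, which rose by 1.65, the other 5 ranged from -0.78 to 1.23. Of the 13 probe sets with a difference of at least 4-fold whose gene had another probe set, 8 had another one called in the same direction and 5 had none called. Of 1539 genes with at least 2 probe sets, 198 had every probe set called in 1 direction, 112 higher and 86 lower, and 39 had probe sets called in both directions. Which transcripts or alleles the disagreeing probe sets read was not tested.

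Genes whose probe sets all moved in 1 direction were read by several probe sets each. Among rises, the Notch-associated repressor her4.2 differed by 0.95 and 0.97 on its 2 probe sets. For her4.2, and for lims1 below, at least 1 of the probe sets carries the suffix that marks shared probes, as for hsp70.3. The tetraspanin tspan4a (0.86 and 1.01), the adaptor grb2b (0.76 and 0.77), the focal adhesion protein lims1 (0.75 and 0.91), the cytokinesis gene cep55l (0.74 and 0.81), the clamp-loader subunit chtf18 (0.59 and 0.69) and the ganglioside activator gm2a (0.58 and 0.59) followed, with zgc:153631, zgc:123295 and zgc:136864. Among falls, elovl8b, a fatty acid elongase, read 5.41, 5.31 and 5.16 in dual morphants, against 7.46, 7.19 and 7.44 in Atg7 morphants, and its 2 probe sets differed by -2.07 and -2.14. The growth factor binding protein igfbp1a differed by -1.37 and -1.38, the matrix metalloproteinase mmp2 by -1.09 and -0.87, and the embryonic alpha globin hbae3 by -0.86 on each probe set. The mucin muc5.1 differed by -1.04 and -0.81, the activin inhibitor fsta by -0.92 and -0.74, and fosl2, a subunit of the transcription factor AP-1, by -1.12, -0.90 and -0.67. The remaining falls of this kind were arhgdig, csrp1a and ponzr1.

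The Bdh2 morpholino was also given without the Atg7 morpholino, and that comparison shares no array with the one above. On the lone Bdh2 array, which has no replicate check and borrows the spread of the other groups, 86.7% of the 5115 called probe sets differed from controls in the same direction as between dual and Atg7 morphants. The share was 63.9% among probe sets not called, 85% among called ones under 1.5-fold and 95.9% among those of at least 2-fold. The Pearson correlation of the 2 differences over all 15502 probe sets was 0.736, given as a description, since probe sets are not independent replicates. Of the 245 probe sets that differed at least 2-fold, 155 also differed at least 2-fold in the same direction on the Bdh2 array. The 10 with the other sign on the Bdh2 array were all lower in dual than in Atg7 morphants: fosl2, junba, si:ch73-335l21.4, c6.2, cyp24a1, socs3a, irf1b and 3 unnamed probe sets.

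**Figure D1:**
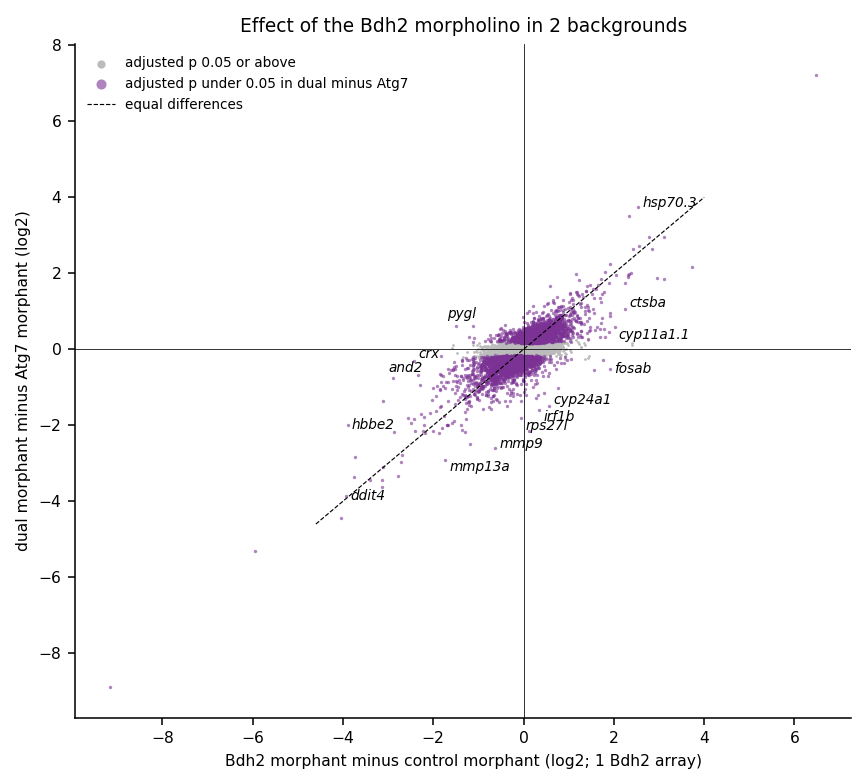
Each point is 1 of 15502 probe sets, with the difference of dual minus Atg7 morphants on the vertical axis and of Bdh2 minus control morphants on the horizontal axis, both on the log2 scale and without a shared array. Of the points past the adjusted p of 0.05 in dual minus Atg7, 86.7% have the same sign in both comparisons. Over them r was 0.828, which does not measure closeness to the dashed line of equal differences. The genes mmp9, irf1b, rps27l and cyp24a1 lie below that line.

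A test of the difference between the 2 backgrounds, here called the departure from additivity (the dual minus Atg7 difference less the Bdh2 minus control difference, in log2), called 1261 probe sets (8.13%), 591 positive and 670 negative. A negative departure means that the Bdh2 morpholino lowered a transcript more, or raised it less, beside the Atg7 morpholino than without it. This test also rests on the lone Bdh2 array.

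Gene lists were read on 1 probe set per gene, that of highest mean level, for 8793 named genes. Of these, 15% were called higher and 20% lower in dual than in Atg7 morphants, and their median difference was -0.0074. The same shares were 6.28% higher and 4.12% lower for Atg7 minus control, 15.2% and 18.9% for dual minus control, 15.4% and 14.9% for Bdh2 minus control, and 4.15% positive and 5.05% negative for the departure. The dual minus Atg7, Atg7 minus control and dual minus control comparisons share arrays, so their values are only set side by side. List members named outside the rule given under the processing, such as the erythroid factors and the ferritin fth1a, were chosen after their values were seen.

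**Figure D2:**
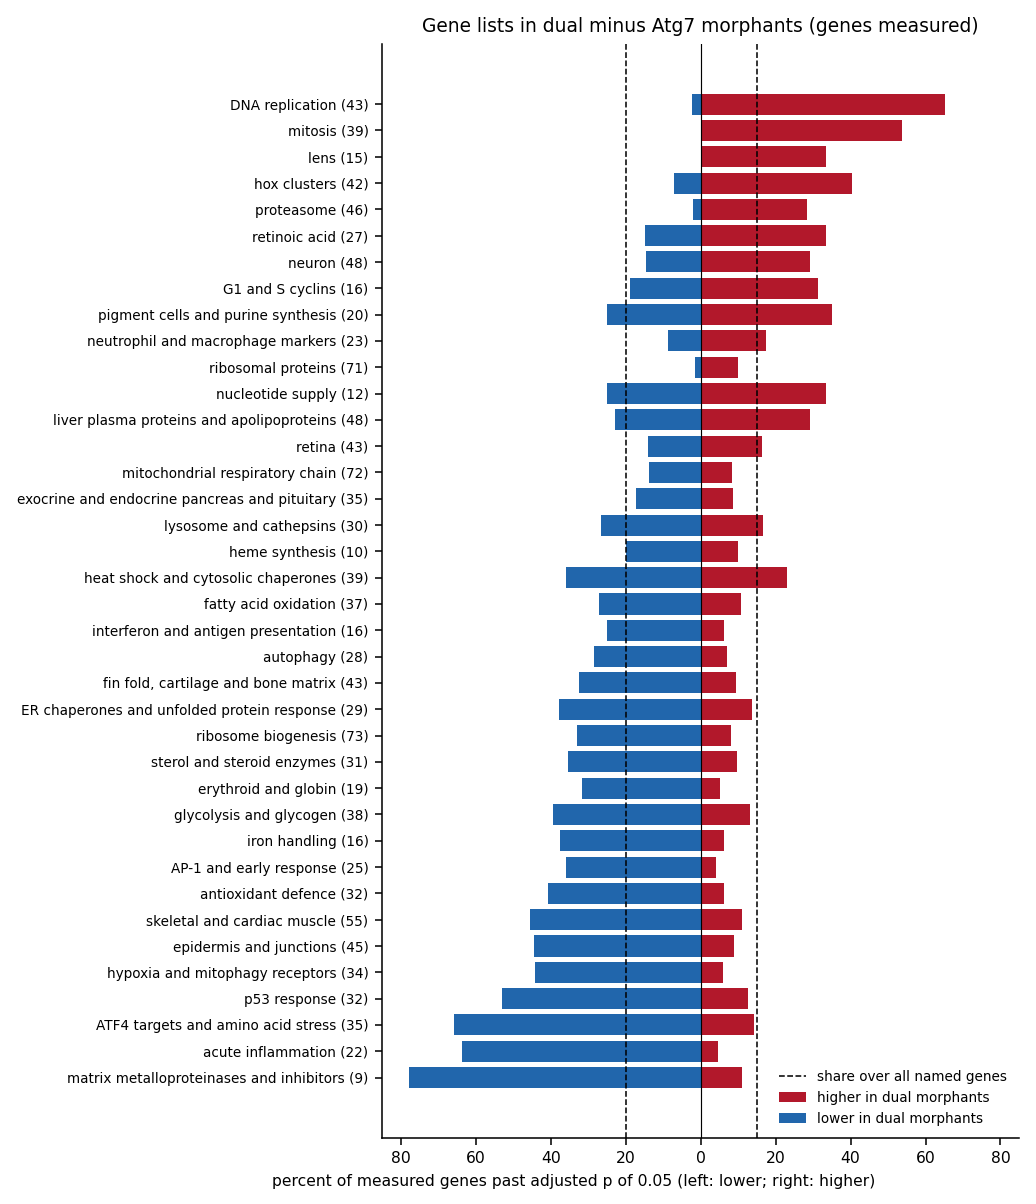
Bars give, for each of 38 gene lists, the percent of measured genes past an adjusted p of 0.05 that were higher (right) or lower (left) in dual than in Atg7 morphants, and dashed lines mark the shares over all named genes, 15% higher and 20% lower. DNA replication and mitosis extend farthest to the right, and the metalloproteinase, ATF4 target and acute inflammation lists farthest to the left.

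Most of the measured inflammatory genes fell in dual against Atg7 morphants. Of 22 measured genes of acute inflammation, 14 fell, 1 rose and 7 did not pass the test in dual against Atg7 morphants, with a median difference of -0.53, or -0.32 when all probe sets of a gene were averaged. In Atg7 against control morphants 16 were higher and none lower by the same limma test, with a median of 0.59, and in dual against control morphants 7 were higher and 4 lower. The gelatinase mmp9, which digests matrix in inflamed and regrowing tissue, read 5.95, 5.84 and 5.99 in dual morphants, against 8.46, 8.57 and 8.51 in Atg7 morphants, and 6.69 to 6.83 in controls. It fell by 2.59 ± 0.065 (SE, limma adjusted p = 7.62e-11), and every dual array lay below every control array. The collagenase mmp13a behaved alike, at 6.31, 6.05 and 6.07 in dual morphants, against 9.06, 8.96 and 9.14 in Atg7 morphants and 7.47 to 7.61 in controls. The transcription factor irf1b read 4.86, 4.84 and 4.69 in dual morphants, against 6.31, 6.46 and 6.41 in Atg7 morphants and 4.49 to 4.59 in controls (-1.59 ± 0.068 SE, limma adjusted p = 9.69e-09). The cytokine signalling inhibitors socs3a and socs3b fell, with differences of -1.29 and -1.2, and socs3a read 6.39, 6.49 and 6.38 in dual morphants, against 7.69, 7.70 and 7.73 in Atg7 morphants and 6.16 to 6.25 in controls. Dual arrays lay above the controls for irf1b and socs3a and below them for socs3b. The exception was saa, an acute phase protein, which rose by 0.30 and no longer passed without dual array 2 (adjusted p = 0.0775), dual array 3 (0.0551) or Atg7 array 1 (0.0679).

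Over the 22 genes the median departure was -0.76. The Bdh2 array did not show the same fall for the list as a whole, with a median Bdh2 minus control difference of 0.17. Yet mmp13a and mmp9 were lower on the Bdh2 array than in controls, with differences of -1.73 and -0.64. Neutrophil and macrophage markers did not move in the same way. Of 23 measured, 4 rose and 2 fell, where 15% of all named genes rose and 20% fell. Their mean level over genes was 6.42 to 6.45 in dual morphants, against 6.39 to 6.44 in Atg7 morphants. Single differences on this list ranged from -0.71 to 0.46. The actin-bundling leukocyte protein lcp1 rose by 0.35, laptm5 by 0.46 and cebp1 by 0.37, while cebpa fell by 0.67. The cebp1 call was lost without dual array 2 (limma adjusted p = 0.0551). The part of leukocyte number in the inflammatory genes was not tested. Of 16 interferon and antigen presentation genes, 4 fell and 1 rose. The falls included isg15 (-0.66) and irf9 (-0.59), and the rise was that of ifi30a, a lysosomal thiol reductase (0.75).

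The AP-1 and early response list held 25 measured genes, of which 9 fell and 1 rose, where 20% of all named genes fell and 15% rose. In Atg7 against control morphants 10 were higher and none lower by the same limma test. The 3 leading falls were subunits of AP-1, a dimeric factor switched on by stress and wounding. The largest, junbb, read 7.38, 7.36 and 7.37 in dual morphants, against 8.57, 8.47 and 8.72 in Atg7 morphants and 7.66 to 7.77 in controls (-1.22 ± 0.07 SE, limma adjusted p = 1.36e-07). The probe set of fosl2 read 6.37, 6.30 and 6.39 in dual morphants, against 7.56, 7.47 and 7.38 in Atg7 morphants, and 6.33 to 6.41 in controls, so dual and control arrays overlapped. Its relative junba fell by 1.03. On 1 probe set fosab fell by 0.52, and its other 3 probe sets differed by -0.18, -0.29 and -0.18. Against these falls, egr2a rose by 0.19. That call was lost without dual array 1 or 3 or Atg7 array 1 or 2 (limma adjusted p from 0.0622 to 0.104). It was also lost with a replicate block (0.0587), on the dual and Atg7 arrays only (0.0605) and with a trended robust variance (0.101). On the Bdh2 array junba and the first fosab probe set were higher than in controls, by 0.77 and 1.91. Of 9 matrix metalloproteinases and their inhibitors, 7 fell and 1, mmp11b, rose by 0.51, with a median of -0.74. Here 7 were also lower and none higher in Bdh2 than in control morphants by limma.

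**Figure D3:**
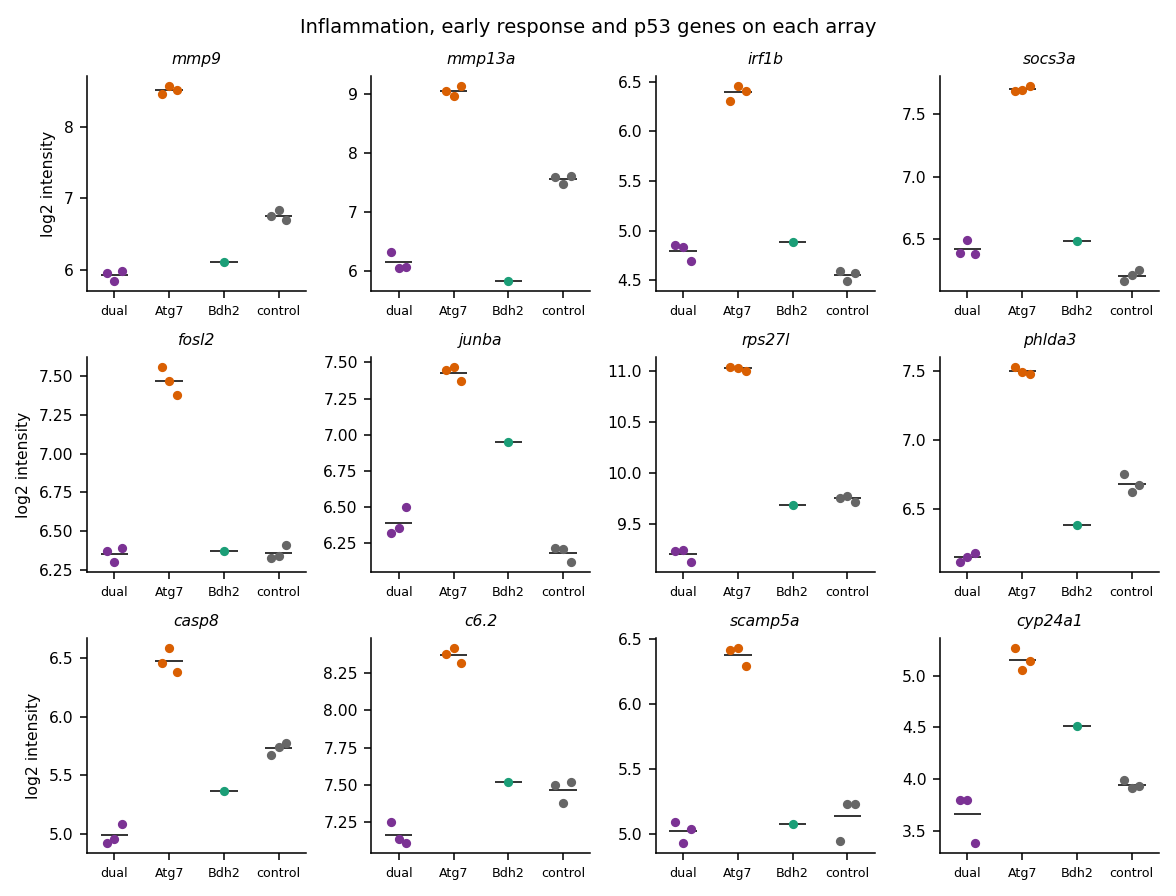
Points are the log2 intensities of 12 genes on each array (3 dual, 3 Atg7, 1 Bdh2 and 3 control), with a line at the group mean and a separate axis for each gene that does not start at 0. All 12 stand highest in the Atg7 morphants, and the mean of dual morphants lies above that of controls for irf1b, socs3a and junba only among them.

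The factor p53 is switched on by DNA damage and other stress and induces genes for growth arrest and cell death. Of 32 measured genes, 17 fell and 4 rose in dual against Atg7 morphants, with a median of -0.22, where 15 were higher and 1 lower in Atg7 than in control morphants. The target rps27l read 9.24, 9.25 and 9.13 in dual morphants, against 11.04, 11.03 and 11 in Atg7 morphants and 9.72 to 9.78 in controls (-1.82 ± 0.058 SE, limma adjusted p = 6.71e-10). All dual arrays thus lay below the controls. The growth inhibitor phlda3 fell by 1.35, the initiator caspase gene casp8 by 1.49, sesn3 by 1.05, the p53 antagonist mdm2 by 0.91 and ccng1 by 0.65. The 4 rises were rrm2b (0.67), xpc, ccng2 and tp53inp2a. The departure was negative for 11 genes and positive for none, and on the Bdh2 array 5 were higher and 3 lower than in controls.

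**Figure D4:**
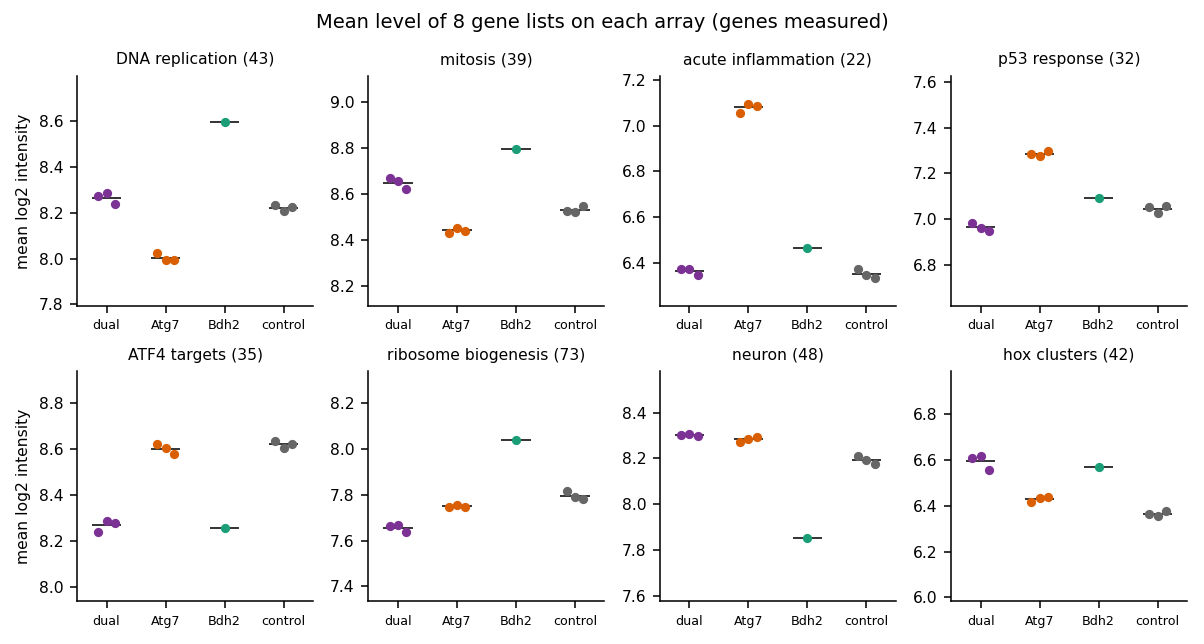
Points are the mean log2 intensity over the measured genes of a list on each array, with a line at the group mean and axes that each span the same range and do not start at 0. The mean levels of the DNA replication and mitosis lists were higher in dual than in Atg7 morphants. Those of the acute inflammation, p53 response, ATF4 target and ribosome biogenesis lists were lower. The Bdh2 array stands farthest from the dual arrays for neuron, ribosome biogenesis and DNA replication genes. It also lies above all dual arrays for mitosis, acute inflammation and p53 response genes, and within their range for ATF4 target and hox genes.

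Of 43 measured DNA replication genes, 28 rose, 1 fell and 14 did not pass the test in dual against Atg7 morphants, with a median of 0.26 and none changed 2-fold. In Atg7 against control morphants 17 were lower and none higher by limma, and in dual against control morphants 11 were higher and 7 lower. The helicase subunit mcm5 read 10.16, 10.19 and 10.13 in dual morphants, against 9.53, 9.60 and 9.40 in Atg7 morphants and 9.91 to 9.94 in controls (0.65 ± 0.063 SE, limma adjusted p = 1.1e-05). The loader cdc6 rose by 0.65, the origin recognition subunit orc4 by 0.73, the polymerase subunit pole2 by 0.67 and the licensing factor cdt1 by 0.54. The polymerase subunit pold2 fell by 0.35. On the Bdh2 array 32 of the genes were higher and none lower than in controls by limma, and the mean level over the list was 8.24 to 8.28 in dual morphants, against 7.99 to 8.02 in Atg7 morphants, and 8.6 on the Bdh2 array, against 8.21 to 8.23 in controls.

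Of 39 mitosis genes, 21 rose and none fell (median 0.18), where 15% of all named genes rose and 20% fell. The cytokinesis scaffold anln read 8.92, 8.82 and 9.15 in dual morphants, against 8.28, 8.25 and 8.31 in Atg7 morphants, which did not overlap, and the condensin subunit ncaph rose equally by 0.68. The spindle checkpoint gene bub3 rose by 0.41 and the chromatin protein hmgb2a by 0.34. Among 16 cyclins and E2F factors of the G1 and S phases 5 rose and 3 fell, with the falls close to the share over all named genes. Of these, e2f7, e2f8 and e2f3 rose by 0.58, 0.55 and 0.36, and ccne1 fell by 0.63. Of 12 genes of nucleotide supply 4 rose and 3 fell, among them the reductase subunit rrm1 (0.63) and the dUTPase dut (0.36), while the thymidine kinase tk1 fell by 0.28 on the probe set read here and differed by 0.81 on its other one.

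Stress genes under the factor ATF4, which answers amino acid shortage and misfolded protein, mostly fell in dual morphants. Of 35 measured, 23 fell, 5 rose and 7 did not pass the test (median -0.24), and 17 were lower and 2 higher in Bdh2 than in control morphants. Atg7 against control morphants gave 2 higher and 3 lower. Beside ddit4, the amino acid transporter subunit slc3a2a fell by 0.71 and the glutathione-degrading enzyme chac1 by 0.57. The phosphatase subunit ppp1r15a rose by 0.61, and its other 3 probe sets differed by 0.56, 0.43 and 0.61. Of 29 chaperones and response genes of the endoplasmic reticulum, 11 fell and 4 rose, where 20% of all named genes fell and 15% rose. The cochaperone dnajb11 read 7.25, 7.26 and 7.54 in dual morphants, against 8.77, 8.70 and 8.65 in Atg7 morphants (-1.36 ± 0.079 SE, limma adjusted p = 1.41e-07), and manf and atf4b fell by 0.36 and 0.35. Cytosolic chaperones split, with 14 of 39 lower and 9 higher, both above those shares. Against the rise of hsp70.3, the cochaperones ahsa1a, bag2 and fkbp5 fell by 2.79, 0.84 and 0.86.

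Of 34 measured hypoxia genes and receptors that mark mitochondria for autophagy, 15 fell, 2 rose and 17 did not pass the test (median -0.17). The receptor bnip3lb read 7.98, 7.94 and 7.89 in dual morphants, against 8.76, 8.80 and 8.88 in Atg7 morphants (-0.87 ± 0.067 SE, limma adjusted p = 1.45e-06), and its relative bnip3 fell by 0.97. The other bnip3lb probe set differed by -0.11. The oxygen-dependent hydroxylase egln3 fell by 0.37 and the vascular growth factor vegfaa by 0.35, and pdk4, which restrains pyruvate oxidation, rose by 0.38. In the autophagy list itself, 8 of 28 genes fell and 2 rose (median -0.11), where 20% of all genes fell and 15% rose. The cargo receptor sqstm1, a substrate of autophagy, read 7.68, 7.78 and 7.77 in dual morphants, against 8.29, 8.18 and 8.25 in Atg7 morphants and 7.61 to 7.76 in controls (-0.49 ± 0.064 SE, limma adjusted p = 0.000103). The conjugation partner atg5 fell by 0.27, optn by 0.39, and atg3 and the lipid kinase pik3c3 rose by 0.33 and 0.24. Of 30 lysosome genes 8 fell and 5 rose. The cathepsin ctsba rose by 1.06 in dual against Atg7 morphants, while ctss2.1, cd63 and ctsla fell by 0.71, 0.40 and 0.25.

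Iron genes were few on the array. Of 16 measured, 6 fell and 1 rose (median -0.15), against the 20% of all genes that fell. The plasma ferroxidase cp, which oxidises iron leaving cells, read 7.59, 7.47 and 7.50 in dual morphants, against 9.61, 9.68 and 9.69 in Atg7 morphants, 6.88 on the Bdh2 array and 9.24 to 9.37 in controls (-2.14 ± 0.062 SE, limma adjusted p = 2.98e-10). The ferritin gene fthl28 read 6.32, 6.42 and 6.29 in dual morphants, against 7.42, 7.34 and 7.44 in Atg7 morphants, 4.94 on the Bdh2 array and 6.78 to 6.82 in controls. Its level was thus lowest on the Bdh2 array and highest in Atg7 morphants. The aconitase and iron sensor aco1 read 7.15, 7.15 and 7.16 in dual morphants, against 8.11, 8.05 and 7.97 in Atg7 morphants and 7.4 to 7.65 in controls. Further falls were fthl30 (-0.53), ncoa4 (-0.43), the receptor that carries ferritin to autophagosomes, and the iron exporter slc40a1 (-0.24). Plasma transferrin, tfa, rose by 0.40, and the main ferritin heavy chain fth1a differed by 0.15 and did not pass the test.

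Of 19 erythroid and globin genes, 6 fell, 1 rose and 12 did not pass the test in dual against Atg7 morphants, while 12 were lower and none higher in Atg7 than in control morphants by limma and 15 were lower and 2 higher in dual than in control morphants. The embryonic beta globin hbbe2 read 7.47, 7.43 and 7.38 in dual morphants, against 9.43, 9.36 and 9.50 in Atg7 morphants, 7.04 on the Bdh2 array and 10.91 to 10.96 in controls (dual minus Atg7 -2.0 ± 0.06 SE, limma adjusted p = 3.73e-10). Carbonic anhydrase cahz fell by 0.85 and the red cell heme synthesis enzyme alas2 by 0.45. The erythroid factor gata1a differed by -0.16 and did not pass the test, nor did tal1 (-0.05) or klf1 (-0.08). In 5 genes of this list, Bdh2 and control morphants differed at least 2-fold in the direction of the dual minus Atg7 difference. Of the other 14 genes, 1 fell and 1 rose. Because that direction was part of the choice, leaving out the 5 genes removes falls by design. The counts for the 14 therefore cannot show whether the rest of the list was unchanged. Over the list the median departure was 0.34. A positive departure means that the Bdh2 morpholino lowered a transcript less, or raised it more, beside the Atg7 morpholino than without it. Of 10 heme synthesis genes, 2 fell and 1 rose, where 20% of all named genes fell and 15% rose. The rise was that of blvrb (0.62), and slc25a38b fell by 0.40.

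Among metabolic genes, glycolysis and glycogen had 15 of 38 lower and 5 higher in dual morphants (median -0.14), with 19 lower and 1 higher in Bdh2 than in control morphants. The phosphofructokinase pfkma fell by 1.01, the pyruvate kinase pklr by 0.90 and the muscle enolase eno3 by 0.76. Glycogen phosphorylase ran the other way. Its gene pygl read 7.84, 7.89 and 7.84 in dual morphants, against 7.24, 7.36 and 7.13 in Atg7 morphants, 6.25 on the Bdh2 array and 7.65 to 7.86 in controls, so the Bdh2 array was the lowest of all 10. Its 3 probe sets rose by 0.62, 0.63 and 0.44. The isomerase gpib rose by 0.64. Antioxidant genes had 13 of 32 lower and 2 higher (median -0.14), including gstt1a (-0.65), gpx1b (-0.43) and txnipa (-0.35), with a rise of the oxidative stress factor nfe2l2a by 0.36. Fatty acid oxidation had 10 of 37 lower and 4 higher, where 20% of all named genes fell and 15% rose. Here acadvl, ucp1 and acsl6 were down by 0.81, 0.71 and 0.34 and fabp3 was up by 0.35. The respiratory chain had 10 of 72 lower and 6 higher, both under the shares for all genes, with ndufb9, atp5mc3a and ndufa10 lower (-0.43, -0.42 and -0.34) and atp5mea higher (0.58). Sterol and steroid enzymes had 11 of 31 lower and 3 higher, and msmo1 fell by 1.56, hmgcs1 by 0.84 and hsd11b2 by 0.66. The widest change on this list was the rise of cyp17a1 by 2.03, which its other probe set did not share (-0.16).

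Several tissue lists had more falls than the background. Skeletal and cardiac muscle had 25 of 55 genes lower and 6 higher (median -0.15). The calcium pump atp2a1l read 8.35, 8.41 and 8.43 in dual morphants, against 9.74, 9.65 and 9.89 in Atg7 morphants, 7.08 on the Bdh2 array and 10.14 to 10.23 in controls. The pump atp2a2a fell by 0.98 and the calcium buffer pvalb5 by 0.96, while ttn.2 rose by 1.68. Epidermis and junctions had 20 of 45 lower and 4 higher, where 17 were higher and 1 lower in Atg7 than in control morphants. The keratins krt15, krt94 and krt1-19d fell by 1.51, 1.33 and 0.93, and krt17 rose by 0.46. In fin fold, cartilage and bone matrix 14 of 43 fell and 4 rose, with col10a1a, the fin fold actinotrichin gene and2 (-0.76) and runx3 (-0.58) among the falls. For and2 the levels were 9.28, 9.22 and 9.36 in dual morphants, against 9.95, 10.08 and 10.12 in Atg7 morphants, 8.20 on the Bdh2 array and 11.03 to 11.14 in controls.

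The neuron and lens lists had more rises than falls, where 15% of all named genes rose and 20% fell. Of 48 neuron genes, 14 rose and 7 fell in dual against Atg7 morphants (median 0.00035, or -0.021 with all probe sets of a gene averaged). The RNA-binding protein elavl3, a marker of new neurons, read 11.54, 11.41 and 11.41 in dual morphants, against 10.80, 10.84 and 10.90 in Atg7 morphants and 10.32 to 10.38 in controls (0.61 ± 0.061 SE, limma adjusted p = 1.39e-05). The sodium pump subunit atp1b2a rose by 0.43, gad2 by 0.57 and cplx2a by 0.33, and gng13b fell by 0.54. On the lone Bdh2 array the list differed: 26 of the 48 genes were lower and 1 higher than in controls, and the departure was positive for 19 and negative for none by limma. Lens genes had 5 of 15 higher and none lower by limma, led by crybb1 (1.03), cryba4 (0.53) and prox1a (0.31). In the retina 7 of 43 rose, close to the share of rises over all genes, and 6 fell (median 0.024). Among them rbp4l, six6b and atoh7 were up by 0.46, 0.45 and 0.30 and pde6c was down by 0.89. The photoreceptor factor crx read 6.35, 6.48 and 6.39 in dual morphants, against 6.89, 6.67 and 6.61 in Atg7 morphants and 6.36 to 6.48 in controls, while the Bdh2 array stood at 4.0.

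Genes of the hox clusters, which set position along the body, rose in 17 of 42 cases and fell in 3 (median 0.19). By p the first was hoxb8a (0.55), read at 8.68, 8.61 and 8.81 in dual morphants, against 8.33, 8.09 and 8.04 in Atg7 morphants. Next by p were hoxa4a (0.34) and hoxc13a (0.42), and hoxa13b fell by 0.57. In the retinoic acid list 9 of 27 rose and 4 fell, where 15% of all named genes rose and 20% fell. Retinoic acid induces its own degrading enzyme cyp26a1, which read 10.10, 10.08 and 10.27 in dual morphants, against 9.29, 9.35 and 9.18 in Atg7 morphants and 7.96 to 8.20 in controls, and stra6 and rdh1 rose by 0.51 and 0.42. The synthesis enzyme aldh1a2 fell by 0.64.

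Liver plasma proteins and apolipoproteins split, with 14 of 48 higher and 11 lower. Single differences on this list ranged from -2.14 to 1.19, so its widest change was a fall, with a median of 0.051. Antithrombin, serpinc1, read 7.84, 7.92 and 8.13 in dual morphants, against 6.88, 6.78 and 6.65 in Atg7 morphants, and apom and fetub rose by 0.78 and 0.79. Among pancreas and pituitary genes 6 of 35 fell and 3 rose, both under the shares of 20% and 15% for all named genes. The hormones sst2, gcga and prl fell by 1.2, 1.08 and 0.89, while the pancreas factor ptf1a rose by 0.30. Of 20 pigment cell and purine synthesis genes, 7 rose and 5 fell, with the melanocyte genes dct and mitfa up by 0.57 and 0.63 and the purine enzyme adsl down by 0.63. Muscle, neuron, lens, retina, liver and pancreas markers were read on the same arrays. Every probe set gives a value and no detection call was made, so these readings do not check the labelled embryo origin.

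Of 73 ribosome biogenesis genes, 24 fell, 6 rose and 43 did not pass the test in dual against Atg7 morphants (median -0.10), whereas 31 were higher and 3 lower in Bdh2 than in control morphants, and the departure was negative for 26 and positive for 1. The mean level over the list was 7.64 to 7.67 in dual morphants, 7.75 to 7.76 in Atg7 morphants, 8.04 on the Bdh2 array and 7.78 to 7.82 in controls. The pre-ribosome factors sdad1 and noc3l fell by 0.55 and 0.59 and the helicase ddx52 by 1.31. The nuclease nob1 rose by 1.35 on a probe set with shared probes and differed by -0.09 on its other probe set. Ribosomal proteins themselves had 7 of 71 higher and 1 lower, both under the shares of 15% and 20% for all named genes. Among them rpl22l1 (0.74), rpl3 (0.21) and rpl36a (0.23) were up and rps26 (-0.18) was down. The rps26 call was lost without Atg7 array 2 or 3 or any dual array (limma adjusted p from 0.0543 to 0.0893) after quantile normalization (0.119), with a replicate block (0.0622) and on the dual and Atg7 arrays only (0.0585). Of 46 proteasome genes, 13 rose and 1 fell, with psma8, psmd3 and sem1 up by 0.34, 0.34 and 0.38 and psmd10 down by 0.39.

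Some genes differed between dual and Atg7 morphants while the Bdh2 array stood near the controls or on the other side of them. Of the called probe sets with 1 gene symbol and non-overlapping groups, 1318 had a Bdh2 minus control difference under 0.2 (log2) or of the other sign. Such small differences were common: the median absolute Bdh2 minus control difference was 0.185 over all probe sets and 0.312 over the called ones. The largest rise among them was slc17a5, a lysosomal sialic acid exporter, which read 7.4, 7.23 and 7.34 in dual morphants, against 6.26, 6.34 and 6.34 in Atg7 morphants, 6.21 on the Bdh2 array and 5.99 to 6.25 in controls (1.00 ± 0.076 SE, limma adjusted p = 1.35e-06). It was thus high in dual morphants only. Next were her4.2, the phosphatase subunit ppp2r2bb (0.73), zgc:113208 (0.73), the tubulin tubb2 (0.68), gpib, the repressor her3 (0.64), arhgef28a (0.64), pygl and wu:fj05g07 (0.60).

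The falls of this kind were led by rps27l and irf1b. The vitamin D degrading enzyme cyp24a1 read 3.80, 3.80 and 3.38 in dual morphants, against 5.27, 5.05 and 5.14 in Atg7 morphants, 4.51 on the Bdh2 array and 3.91 to 3.99 in controls, so its level in dual morphants was near that of controls. Its other probe set differed by -0.13. The secretory vesicle protein scamp5a read 5.09, 4.93 and 5.04 in dual morphants, against 6.41, 6.43 and 6.29 in Atg7 morphants and 4.95 to 5.23 in controls. The complement component c6.2 fell by 1.21, socs3b by 1.2, the cell survival gene mcl1b by 1.16, si:ch73-335l21.4 by 1.15 and fosl2 by 1.12.

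The 5 largest positive departures were and2 (2.13), pygl (2.11), crx (2.1), hbbe2 (1.89) and atp2a1l (1.75). The 5 largest negative ones among named genes were fosab (-2.43), cyp11a1.1 (-2.29), the uric acid oxidase uox (-2.11), cyp24a1 (-2.06) and mmp9 (-1.95). The steroid enzyme cyp11a1.1 was 4.17, 4.39 and 4.18 in dual morphants, against 4.10, 4.35 and 3.97 in Atg7 morphants, which overlapped, and 6.45 on the Bdh2 array, against 3.99 to 4.14 in controls. Without a second Bdh2 array, a feature of that array and an effect of the morpholino cannot be told apart for these genes.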

How the data were processed

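RNA of 10 samples of zebrafish embryos was measured on 1-colour Affymetrix arrays, and the values used were log2 expression values deposited by the authors, 1 per probe set. How they were summarised and normalized is not given in the sources used here, and no further scaling was applied. The number of arrays limits the precision. Arrays were grouped by title. After 115 control probe sets were left out of 15617, 15502 were fitted with limma 3.58.1 (lmFit and eBayes, R 4.3.3; tables with Python 3.11.15) over all 10 arrays with 4 group means and 6 residual degrees of freedom, and p-values were adjusted by Benjamini-Hochberg over all probe sets, with a threshold of 0.05. The script was tested on simulated data. Genes were named from the platform annotation, updated through Entrez IDs: 10795 probe sets had 1 symbol, 135 several and 4572 none, and only those with 1 were named.

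Named genes were bdh2, the 15 largest rises and falls with non-overlapping groups, the 10 rises and falls best shared by all probe sets of a gene, the 10 with a Bdh2 minus control difference under 0.2 or of the other sign, the 5 largest departures each way and, from each of 38 gene lists, the 3 smallest p in the main direction and the 1 smallest against it. Other list members in the text were named after their values were seen. The comparison, members and lists were chosen with earlier results of these data known. The arrays were not treated as paired in the main fit. Deviations from the group mean of same-numbered dual and Atg7 arrays correlated at -0.3745, 0.02079 and -0.1802. For control and Atg7 arrays the values were 0.1974, -0.101 and 0.1774, and for control and dual arrays -0.2254, -0.03983 and -0.2911. Deviations from a mean of 3 arrays are tied to each other, so these values cannot decide whether replicates were paired. Alternatives were a filter on low values, leaving out probe sets with shared probes, quantile normalization, a trended robust variance, a replicate block, fewer groups and leaving out each array.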

Additional observations from a re-analysis of the deposited data

Results flagged for a closer look

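Of the 200 named probe sets, 81 had a departure from additivity past the limma threshold: by that test, the Bdh2 morpholino's effect differed with and without the Atg7 morpholino. Over all probe sets tested the share was 8.13%. Several rules for naming used the departure or the Bdh2 minus control difference itself. The count of 81 therefore does not show that departures were more common among named genes. The departure, dual minus Atg7 minus Bdh2 plus control on the log2 scale, was positive for 39 and negative for 42. For 28 the dual minus Atg7 and Bdh2 minus control differences had different signs, whatever their size. Some of these were near 0 on the Bdh2 side, such as fosl2 (0.0044) and c6.2 (0.053). The 10 probe sets listed earlier with the other sign were named for that sign, so the count of 28 is partly a product of the choice. Each value rests on the lone Bdh2 array and has no replicate check on that side. Apart from the 5 largest each way among named genes, these departures were not recomputed singly under the alternatives described below. No group had enough arrays for a test of a single array that stands apart.

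Among inflammatory, immune and AP-1 genes the departure was -1.95 for mmp9, -1.17 for mmp13a, -1.93 for irf1b, -1.56 for socs3a, -1.12 for socs3b, -1.26 for c6.2, -1.13 for fosl2, -2.43 for fosab, -1.80 for junba, -0.91 for junbb, 0.97 for mmp11b, -0.58 for cebpa, -0.83 for isg15 and -0.65 for ifi30a. Among genes of the p53 response, cell survival, autophagy and the lysosome the departure was -1.76 for rps27l, -1.05 for phlda3, -1.13 for casp8, -1.02 for mcl1b, -0.74 for sqstm1, -1.24 for ctss2.1, -0.49 for ctsla, -1.18 for ctsba, 0.89 for slc17a5 and -0.49 for gm2a. Among chaperone and stress genes the departure was 1.2 for hsp70.3, 0.80 for fkbp5, -0.46 for atf4b, 0.36 for chac1, -0.95 for igfbp1a, 0.49 for gstt1a and -0.37 for txnipa. Among globin, heme and iron genes the departure was 1.89 for hbbe2, 0.62 for hbae3, 0.71 for cahz, 1.04 for alas2, 0.80 for fthl28 and -0.72 for aco1. Among genes of sugar, fat, purine, sterol, vitamin D and retinoic acid metabolism the departure was 1.04 for gpib, 1.74 and 2.11 for pygl on its probe sets, 0.50 for pklr, 1.00 for pfkma, 0.46 for acsl6, -2.11 for uox, -0.85 for msmo1, 1.2 for hsd11b2, -2.29 for cyp11a1.1, -2.06 for cyp24a1, -1.04 for cyp26a1 and 0.73 for rdh1. Among muscle, epidermis, fin and skeletal genes the departure was 1.75 for atp2a1l, 0.82 for pvalb5, -0.79 for krt1-19d, -1.42 for krt17, 2.13 for and2, 0.89 for col10a1a, 0.56 for runx3 and 1.08 for hapln1a. Among neural, eye, hormone and patterning genes the departure was 2.1 for crx, 1.41 for atoh7, 0.76 for six6b, 0.41 for crybb1, 0.48 for atp1b2a, 1.02 for gng13b, 0.61 for tubb2, 0.86 for her4.2, -0.41 for prl, -1.17 for fsta and 0.80 for hoxc13a. Among the rest, 3 of them unnamed probe sets, the departure was 0.60 for hnrnpa0a, 0.52 for rpl22l1, -0.54 for sdad1, 0.71 for ppp2r2bb, -1.30 for scamp5a, 0.45 for wu:fj05g07, 0.56 for zgc:113208, -0.49 for si:ch1073-340i21.3, -1.61 for si:ch73-335l21.4, and -1.08, -1.54 and -2.27 for the unnamed ones.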

How the results depend on the processing

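Between dual and Atg7 morphants, the count of 5115 probe sets became 4541 with a replicate block and 5508 with a trended robust variance, and ranged from 4056 to 5145 when 1 array was left out; the count changed at least 2-fold ranged from 203 to 257 over the alternatives. For the 200 named probe sets, 3287 of 3306 recomputed values kept their side of the threshold. None that was called in either fit changed sign, and 19 lost the call, all of saa, egr2a, cebp1 or rps26. Most of these probe sets were named for large differences or small p on the same arrays, so this stability was largely set by the choice. The recomputed values were of dual minus Atg7. The departure was also recomputed, but only for the 5 largest departures each way among named genes. Of 684 recomputed list medians, 87 moved by more than the spread between replicates. None whose main value exceeded that spread changed sign. Medians nearer 0 could change sign, as that of the neuron list did, from 0.00035 to -0.021 with all probe sets of a gene averaged. Other counts were less stable. With the replicate block, Atg7 minus control gave 1006 (345 lower), against 1536 (565 lower), and the departure 708 (348 positive, 360 negative), against 1261. The trended robust variance gave 852 lower for Atg7 minus control. With 1 array left out, Atg7 minus control ranged from 811 to 1560, from 537 to 979 higher and from 274 to 581 lower, and negative departures from 437 to 652. The Atg7 minus control count was 1011 without Atg7 array 1 and 937, 811 and 902 without control array 1, 2 and 3; fewer arrays were fitted there. Signals under a log2 mean of 5 limit the size of the deepest falls.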

Other observations

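Over the whole table, named genes such as hsp70.3 and ddit4 included, 23 probe sets separated the 4 arrays with the Bdh2 morpholino from the 6 without it by at least 2 on the log2 scale between the nearest arrays, 9 of them higher with the morpholino. A further unnamed one, singled out after its values were seen, read 4.80, 4.47 and 4.57 in dual morphants, against 9.91, 9.97 and 9.91 in Atg7 morphants, with 4.59 on the Bdh2 array, against 10.50 to 10.62 in controls. Its identifier has the same stem as that of the ctsba probe set, which rose by 1.06 in dual against Atg7 morphants. Neither the transcript that this unnamed probe set reads nor a cause of its step was tested.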
